A study of Capra hircus with 12 samples.

Results

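The genes described here encode 10 integrin subunits known in chondrocytes, which were taken by their symbols from the count tables of goat jaw joint cells. They are 10 of the 28910 genes in each table, and all 10 were found in both layers. By role, 4 are collagen-binding α subunits (ITGA1, ITGA2, ITGA10 and ITGA11), 1 is the β subunit that they share (ITGB1), and 5 are subunits of receptors for the arginine-glycine-aspartate (RGD) motif (ITGA5, ITGAV, ITGB3, ITGB5 and ITGB8).

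Integrins are receptors made of an α and a β chain, which connect the extracellular matrix outside the cell to the actin cytoskeleton inside it. The collagen-binding α chains each pair with ITGB1 alone, whereas ITGAV pairs with several β chains and ITGA5 with ITGB1 to bind fibronectin and other ligands through the RGD motif. In cartilage they anchor chondrocytes to their matrix and pass on mechanical signals.

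Cells of the condylar fibrocartilage of the temporomandibular joint (TMJ) were isolated from female goats aged 6 to 9 months, obtained from abattoirs, and were grown as passaged monolayers (passages 3 to 5). Superficial layer cells (SLC) and middle layer cells (MLC) were kept apart, and RNA was sequenced in 12 libraries. In each layer, 3 libraries were labelled IL-1β (10 ng for 1 h) and 3 were labelled IL-1β + LOXL2, where an adenovirus carrying LOXL2, a matrix cross-linking lysyl oxidase, had been added overnight before the same cytokine. All 12 libraries therefore come from cells given IL-1β, a cytokine of joint inflammation, and cells without it were not analysed here. For the RNA sequencing the sources used here do not say whether cells labelled IL-1β alone received an empty adenovirus, so LOXL2 and the virus cannot be told apart. Monolayer culture over several passages is itself a limit of the model, since chondrocytes lose cartilage matrix expression in it. No label says that replicates came from separate animals or cultures, so p-values measure the spread between these libraries, which may be technical.

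RNA was poly-T selected, and reads were counted per gene. The SLC libraries held 18751323 to 22123593 counts with IL-1β and 21080134 to 28931652 with IL-1β + LOXL2, and the MLC libraries 14158607 to 15330697 and 14188227 to 19459045. Levels are given in replicate order as CPM, a gene's counts relative to the size of its library with TMM scaling over the 12 libraries. Levels of different integrin genes were not compared with each other, because transcript lengths were not used here. Marker lists were summed in CPM and their most abundant gene was named, also without transcript lengths. Fold changes are on the log2 scale with their standard error (SE). Each adjusted p comes from a quasi-likelihood fit in edgeR, adjusted over all genes tested by the method of Benjamini and Hochberg, and the threshold is 0.05. Each comparison holds 3 libraries against 3.

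LOXL2 itself was examined first. In SLC it was at 614, 618 and 633 CPM with IL-1β and at 458, 546 and 561 CPM in the libraries labelled IL-1β + LOXL2, giving a log2 fold change of -0.27 (SE 0.11, adjusted p = 0.105). In MLC the levels were 767, 875 and 817 CPM and 815, 796 and 742 CPM, a log2 fold change of -0.066 (SE 0.086, adjusted p = 0.595). The label IL-1β + LOXL2 thus did not go with more counts on the goat gene, and every direction given for LOXL2 treatment rests on the labels. The sources used here do not give the species or sequence of the LOXL2 carried by the virus. Whether its reads would be counted on the goat gene is therefore not known, and these counts cannot show whether it was expressed. Between layers LOXL2 was higher in MLC, by 0.40 (adjusted p = 1.27e-04) with IL-1β and 0.60 (adjusted p = 0.0136) with IL-1β + LOXL2. The latter did not pass without the third SLC replicate or without any 1 of the MLC replicates (adjusted p up to 0.0839).

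The cell type was checked against its markers. COL2A1, the main collagen of hyaline cartilage, had 0, 0 and 0 counts in the SLC libraries labelled IL-1β, 0, 0 and 1 in those labelled IL-1β + LOXL2, and 295, 159 and 282 and then 350, 176 and 332 in the MLC libraries. COL9A1, another cartilage collagen, was also at 0 in every SLC library with IL-1β. Against a floor of 3 counts per library, the lowest MLC library with IL-1β was at least 67.2-fold higher for COL2A1 and 74.1-fold higher for COL9A1. ACAN, the core protein of the cartilage proteoglycan, stood at 50.1, 47.3 and 45.1 CPM in SLC and 435, 350.3 and 416 CPM in MLC with IL-1β, and its regulator SOX9 at 21.9, 19.7 and 22.1 and 92.8, 77.8 and 90.1 CPM. Of 14 listed chondrocyte markers, 12 were in the tables and 10 were tested between layers, of which 7 were higher in MLC and 0 lower past the threshold with either treatment, beside 46.9% of all genes called with IL-1β and 16.1% with IL-1β + LOXL2. COL2A1 and COL9A1 are among those higher. They passed the filter on low counts through MLC alone, so they could only be called higher. The summed level of the listed markers with IL-1β was 1379.6, 1433 and 1308 CPM in SLC and 1923, 1773 and 1907 CPM in MLC, with COL11A1 the most abundant in each library. With IL-1β + LOXL2 it was 1307, 754 and 966 CPM and 1877, 1627 and 1489.9 CPM. The defining collagens of hyaline chondrocytes were therefore absent or near 0 in SLC, and these libraries are called here by their layer. The 8 listed fibroblast or superficial layer markers summed to 63878 to 77812 CPM over the 12 libraries, with COL1A1 the most abundant in each. With IL-1β, COL1A1 was at 37663, 35864 and 36091 CPM in SLC and 32528, 30632 and 33024 CPM in MLC. ITGB2, the leukocyte β chain, had no more than 9 counts in any library, whereas CD14, a listed leukocyte marker, had 1034 to 2219 counts (47.1 to 133 CPM). Of the other listed leukocyte markers, PTPRC had 0 to 2 counts, TYROBP 0 to 6 and CSF1R 13 to 43.

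Some libraries stood apart from others of their group. In the first SLC replicate labelled IL-1β + LOXL2, ITGB1, ITGB3 and ITGA6 were near the levels of the IL-1β libraries, and the chi-square per degree of freedom between replicates of that group ranged from 29.2 to 159. It ranged from 6.25 to 7.39 among SLC libraries with IL-1β, from 2.23 to 9.37 among MLC libraries with IL-1β, and from 5.81 to 33.9 among MLC libraries with IL-1β + LOXL2, where ITGB1, ITGAV and ITGA1 of the first replicate were the nearest to the IL-1β group. Results that rest on these libraries are given with and without them.

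**Figure D1:**
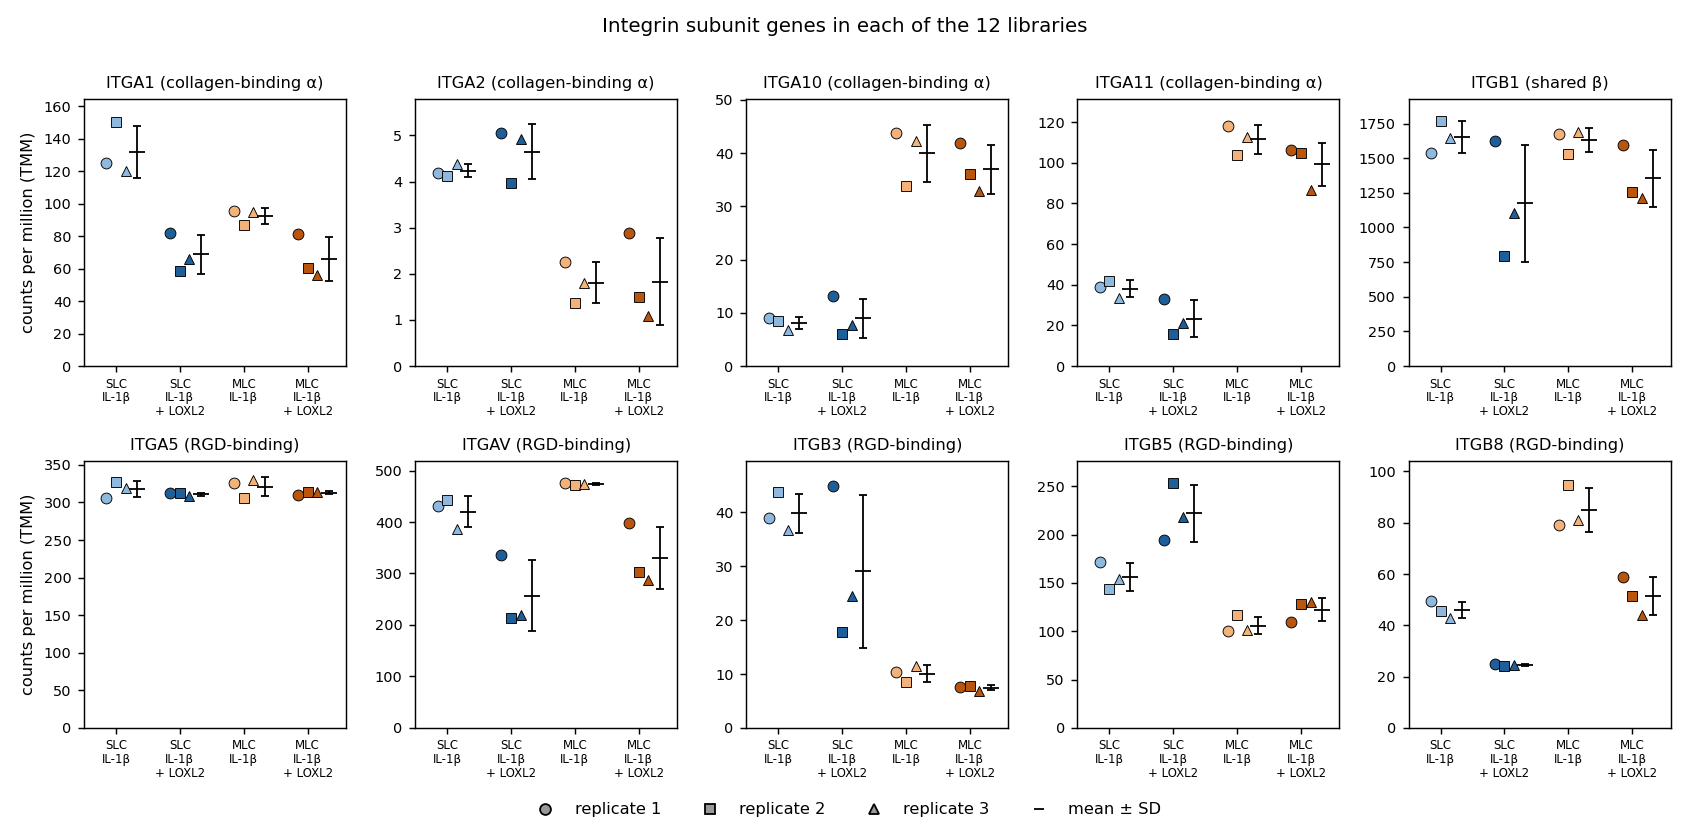
Levels of the 10 integrin subunit genes in CPM (TMM scaling, vertical axes from 0, each gene with its own scale) in the 12 libraries, with group mean ± SD (n = 3) beside the points. ITGA10 and ITGA11 lie higher in every MLC library than in any SLC library, ITGB3 and ITGA2 lie lower and ITGA5 lies between 305.7 and 330.4 CPM in all 12.

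The comparison of the layers asks how the subunits differ between cells of the superficial and middle cartilage. ITGA10, the collagen receptor chain that is characteristic of chondrocytes, was at 8.98, 8.51 and 6.76 CPM in SLC and 43.8, 33.8 and 42.2 CPM in MLC with IL-1β. The groups did not overlap, and the log2 fold change of MLC against SLC was 2.31 (SE 0.12, adjusted p = 1.92e-09). ITGA11, a chain that binds fibrillar collagens and is typical of mesenchymal cells, was at 39.1, 41.7 and 33.6 CPM in SLC and 118, 104 and 113 CPM in MLC. It too was higher in every MLC library, with a log2 fold change of 1.55 (SE 0.081, adjusted p = 1.83e-09). In bulk RNA, a different share of cells that express a gene and a different amount of RNA per cell cannot be told apart. Layer also cannot be told apart from anything else that differed between both sets of cultures.

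The other collagen-binding chains had the opposite order. ITGA1, whose receptor prefers network-forming collagens, was at 125, 150.2 and 119.98 CPM in SLC and 95.4, 86.8 and 95.1 CPM in MLC with IL-1β, a log2 fold change of -0.51 (SE 0.081, adjusted p = 1.26e-04). ITGA2, whose receptor prefers fibrillar collagens, had 81, 93 and 89 counts in SLC and 32, 21 and 27 in MLC, or 4.18, 4.12 and 4.39 and 2.25, 1.37 and 1.80 CPM. Its log2 fold change was -1.23 (SE 0.21, adjusted p = 2.54e-04). The layers did not overlap in either gene. In the RefSeq annotation of the goat assembly ARS1.2, ITGA2 (chromosome 20, 26024056 to 26133098) and ITGA1 (chromosome 20, 26151530 to 26323673) are neighbours 18431 bases apart. ITGA10 lies on chromosome 3 (99059175 to 99076627) and ITGA11 on chromosome 10 (86024887 to 86161036). PELO and a long noncoding RNA gene lie within the span of ITGA1, and the strand setting of the counting was not given in the sources used here, so the ITGA1 count is uncertain to that extent. PELO itself held between 325 and 1135 counts. ITGA11 is overlapped by 2 long noncoding RNA genes, at 0 to 2 counts, and its count is uncertain in the same way.

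With IL-1β + LOXL2 the layers differed again in 3 of these 4 genes. ITGA10 was at 13.1, 6.07 and 7.79 CPM in SLC and 41.8, 36.0 and 32.9 CPM in MLC, a log2 fold change of 2.05 (SE 0.29, adjusted p = 0.00325). ITGA11 was at 33.2, 15.6 and 21.2 and 106, 105 and 86.8 CPM, a log2 fold change of 2.10 (SE 0.28, adjusted p = 0.00245). Each MLC library was above each SLC library for both genes, and both stayed past the threshold when any 1 library was left out. ITGA2 was at 5.06, 3.96 and 4.92 and 2.89, 1.5 and 1.08 CPM, a log2 fold change of -1.32 (SE 0.36, adjusted p = 0.0438), which no longer passed without the third SLC replicate or without the second or the third MLC replicate (adjusted p up to 0.161, log2 fold change -1.84 to -1.04 over the 6 fits). ITGA1 was at 81.8, 58.4 and 66.1 and 81.6, 60.5 and 56.1 CPM. These groups overlapped, with a log2 fold change of -0.047 (95% interval -0.50 to 0.41, adjusted p = 0.902).

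ITGB1, the partner of all 4 chains, was at 1538, 1768 and 1645 CPM in SLC and 1675, 1531 and 1687 CPM in MLC with IL-1β. The layers overlapped, and the log2 fold change was -0.013 with a 95% interval of -0.16 to 0.14 (adjusted p = 0.892). With IL-1β + LOXL2 it was at 1623, 791 and 1107 CPM in SLC and 1593, 1255 and 1216 CPM in MLC, and the first replicate of each layer was the highest. The log2 fold change was 0.21 (95% interval -0.41 to 0.84, adjusted p = 0.649), and 0.54 (adjusted p = 0.0463) without the first SLC replicate. The gene is on chromosome 13 (19308859 to 19352144).

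Among the RGD-binding subunits, the β chains differed most between layers. ITGB3, the β chain of the classical vitronectin receptor, was at 38.9, 43.8 and 36.8 CPM in SLC and 10.3, 8.44 and 11.4 CPM in MLC with IL-1β. All MLC libraries were below all SLC libraries, with a log2 fold change of -1.98 (SE 0.11, adjusted p = 2.97e-09). ITGB5, a further vitronectin-binding partner of ITGAV, was at 171, 143 and 154 and 99.9, 116 and 101.2 CPM, again lower in each MLC library, with a log2 fold change of -0.56 (SE 0.078, adjusted p = 4.26e-05). ITGB8, whose dimer with ITGAV binds latent TGF-β and takes part in its activation, had the opposite order. It was at 49.4, 45.4 and 42.9 CPM in SLC and 79.2, 94.8 and 80.9 CPM in MLC, a log2 fold change of 0.89 (SE 0.080, adjusted p = 5.18e-07).

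These 3 β chains kept their direction with IL-1β + LOXL2. ITGB3 was at 44.9, 17.8 and 24.4 CPM in SLC and 7.58, 7.79 and 6.88 CPM in MLC, a log2 fold change of -1.96 (SE 0.34, adjusted p = 0.00799). ITGB5 was at 194, 253 and 219 and 109, 128 and 130.1 CPM, a log2 fold change of -0.84 (SE 0.14, adjusted p = 0.00542). ITGB8 was at 25.0, 24.2 and 24.5 and 58.7, 51.6 and 44.1 CPM, a log2 fold change of 1.08 (SE 0.14, adjusted p = 0.00201). No pair of groups overlapped for any of the 3, and each call held in all 6 fits that left out 1 library, as it did with IL-1β alone. ITGB3 lies on chromosome 19 (45950375 to 46011651), ITGB5 on chromosome 1 (68975717 to 69087834) and ITGB8 on chromosome 4 (91410508 to 91505570).

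The α chains of the RGD receptors differed less. ITGAV, the common partner of ITGB3, ITGB5 and ITGB8 (chromosome 2, 126711680 to 126817394), was at 430.4, 443 and 386 CPM in SLC and 475, 472 and 473 CPM in MLC with IL-1β. All MLC libraries were above all SLC libraries. The log2 fold change of 0.18 (SE 0.063, adjusted p = 0.0326) passed the threshold, but not in 3 of the 6 fits that left out 1 library (the third SLC replicate, the first or the third MLC replicate), where the adjusted p reached 0.117, nor in a fit on all 12 libraries (adjusted p = 0.506). With IL-1β + LOXL2 it was at 336, 213 and 220.1 and 399, 304 and 287 CPM, with a log2 fold change of 0.37 (adjusted p = 0.317), and 0.63 (adjusted p = 0.0134) without the first SLC replicate. ITGA5, the α chain of the fibronectin receptor (chromosome 5, 25402506 to 25423572), was at 306, 327 and 319.9 CPM in SLC and 326, 306 and 330.4 CPM in MLC with IL-1β. Its log2 fold change was 0.019 (95% interval -0.11 to 0.15, adjusted p = 0.815), and 0.021 (-0.21 to 0.25, adjusted p = 0.914) with IL-1β + LOXL2.

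In all, 8 of 10 members passed the threshold between layers with IL-1β, 4 higher and 4 lower in MLC, beside 46.9% of the 13953 genes tested (24.2% higher and 22.7% lower). The groups of the same 8 did not overlap, which held for 55.9% of genes and is the case for 10% by chance with 3 against 3. The members' median log2 fold change was 0.0029, beside -0.0070 for all genes tested, and lay between -0.034 (first SLC library left out) and 0.041 (second MLC library left out) in the 6 fits without 1 library. With IL-1β + LOXL2, 6 of 10 passed, 3 in each direction, beside 16.1% of 14074 genes (9.29% higher and 6.83% lower), and 6 had no overlap, beside 35.0% of genes. The median was 0.12, beside -0.031, and it moved to 0.32 and 0.0055 with the first and the second SLC library left out and to 0.058 and 0.18 with the first and the third MLC library left out. In this comparison the count was 8 without the first SLC replicate (32.9% of genes called), 6 without the first MLC replicate (9.79%) and 7 with the replicate number as a block (27.6%), where ITGAV also passed with 0.39 (adjusted p = 0.0300).

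**Figure D2:**
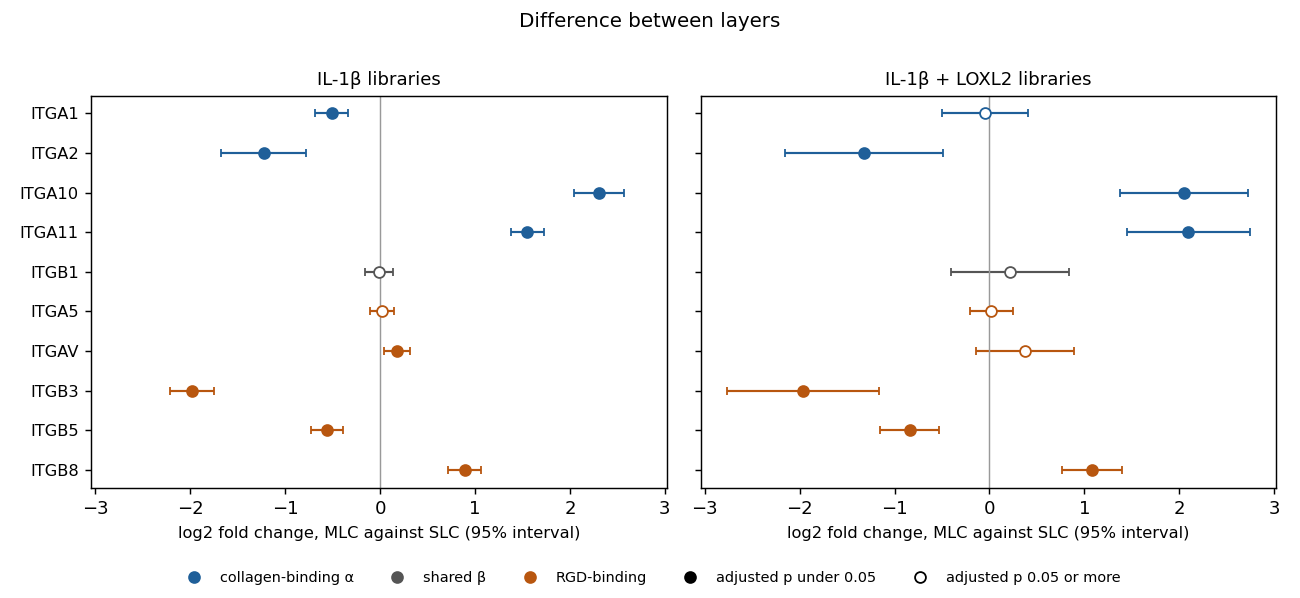
Log2 fold change of MLC against SLC for each integrin subunit gene with its 95% interval, among libraries with IL-1β (left) and with IL-1β + LOXL2 (right); filled points have an adjusted p under 0.05 in edgeR. ITGA10 and ITGA11 lie farthest to the right, at 2.31 and 1.55 with IL-1β, and ITGB3 farthest to the left, at -1.98.

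The next comparison asks how the subunits differ between cells labelled IL-1β + LOXL2 and cells labelled IL-1β. In MLC, ITGB8 was at 79.2, 94.8 and 80.9 CPM with IL-1β and 58.7, 51.6 and 44.1 CPM in the libraries labelled IL-1β + LOXL2. Both groups lay apart, and the log2 fold change was -0.73 (SE 0.12, adjusted p = 0.0190). ITGAV was at 475, 472 and 473 CPM and 399, 304 and 287 CPM, with the first replicate labelled IL-1β + LOXL2 the nearest to the IL-1β group and no overlap, and a log2 fold change of -0.52 (SE 0.11, adjusted p = 0.0199). ITGA1 was at 95.4, 86.8 and 95.1 and 81.6, 60.5 and 56.1 CPM, a log2 fold change of -0.49 (SE 0.13, adjusted p = 0.0267), also without overlap.

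The remaining 7 members did not pass the threshold in MLC. ITGB3 was lower in each library labelled IL-1β + LOXL2, at 7.58, 7.79 and 6.88 CPM against 10.3, 8.44 and 11.4 CPM, with a log2 fold change of -0.45 (adjusted p = 0.0563). ITGB1 had -0.27 (adjusted p = 0.0841) and ITGB5 0.21 (adjusted p = 0.152), with overlapping groups. ITGA10 had -0.12 (95% interval -0.39 to 0.16), ITGA11 -0.17 (-0.40 to 0.052) and ITGA5 -0.040 (-0.22 to 0.13). ITGA2, with between 20 and 56 counts per library, had a log2 fold change of 0.034 and a wide interval of -0.75 to 0.82. Its counts were low, and its replicates with IL-1β + LOXL2 differed, at 56, 21 and 20 counts. What limits its precision was not tested.

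The MLC count was thus 3 of 10, 0 higher and 3 lower, beside 21.6% of 13664 genes (9.81% higher and 11.8% lower), and 4 members had no overlap, beside 41.5% of genes. The members' median log2 fold change was -0.22 (-0.43 and -0.14 with the first and the third IL-1β + LOXL2 library left out, and -0.14 with the trend on gene span, given below, removed) and that of all genes tested 0.0079. The 3 calls depended on single libraries. When the first or the third library with IL-1β was left out, or the second with IL-1β + LOXL2, 0 members and 0% of all genes passed. Without the second IL-1β replicate (5.95% of genes) or the third IL-1β + LOXL2 replicate (3.43%), ITGAV and ITGB8 passed and ITGA1 did not. Without the first IL-1β + LOXL2 replicate, 6 members passed (48.1% of genes), which were ITGA1, ITGB1, ITGAV, ITGB3 and ITGB8, lower, and ITGB5, higher. A fit on all 12 libraries called 0 members and 0% of genes, with an adjusted p of 0.174 for ITGB8, ITGAV and ITGA1, whereas DESeq2 called the same 3 (26.7% of genes). The log2 fold change stayed negative in all 6 fits that left out 1 library, at -0.83 to -0.62 for ITGB8, -0.68 to -0.43 for ITGAV and -0.67 to -0.38 for ITGA1.

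In SLC, ITGB8 was at 49.4, 45.4 and 42.9 CPM with IL-1β and 25.0, 24.2 and 24.5 CPM in those labelled IL-1β + LOXL2. This narrow group lay below the IL-1β libraries, with a log2 fold change of -0.92 (SE 0.10, adjusted p = 0.0706). ITGA1 was at 125, 150.2 and 119.98 and 81.8, 58.4 and 66.1 CPM, a log2 fold change of -0.95 (SE 0.16, adjusted p = 0.0706). ITGAV was at 430.4, 443 and 386 and 336, 213 and 220.1 CPM, a log2 fold change of -0.73 (SE 0.19, adjusted p = 0.0706). ITGA11 was at 39.1, 41.7 and 33.6 and 33.2, 15.6 and 21.2 CPM, a log2 fold change of -0.72 (SE 0.27, adjusted p = 0.0867). For these 4 genes each library labelled IL-1β + LOXL2 was below each IL-1β library, though the first replicate of ITGA11 was close to the lowest of them. ITGB5 had the opposite order, at 171, 143 and 154 and 194, 253 and 219 CPM with no overlap, a log2 fold change of 0.49 (SE 0.13, adjusted p = 0.0706).

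The groups of the other 5 members overlapped in SLC. ITGB1 was at 1538, 1768 and 1645 CPM with IL-1β and 1623, 791 and 1107 CPM with IL-1β + LOXL2, giving a log2 fold change of -0.50 (SE 0.25, adjusted p = 0.157). ITGB3 was at 38.9, 43.8 and 36.8 and 44.9, 17.8 and 24.4 CPM, a log2 fold change of -0.47 (SE 0.32, adjusted p = 0.274). In both, the first IL-1β + LOXL2 replicate lay within or above the IL-1β group and the others lay below it. ITGA2 had a log2 fold change of 0.12 (95% interval -0.28 to 0.52), ITGA10 of 0.14 (-0.55 to 0.83) and ITGA5 of -0.045 (-0.26 to 0.17).

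None of the 10 members and 0% of the 14103 genes tested in SLC had an edgeR adjusted p under 0.05. At an unadjusted p under 0.05 there were 5 members, beside 43.3% of all genes, and 5 members had no overlap, beside 49.1%. DESeq2's Wald test called the same 5 members (30.4% of genes), namely ITGA1, ITGA11, ITGAV, ITGB8 and ITGB5, and so did edgeR's fit on all 12 libraries (41.1%). The members' median log2 fold change was -0.49, beside 0.013 for all genes, and it was -0.88 without the first and -0.25 without the second IL-1β + LOXL2 replicate. With the trend on gene span removed, which is described below, it was -0.28, beside 0.045. Without the first IL-1β + LOXL2 replicate, 7 members passed (61.7% of genes), with ITGB8 at -0.94 (adjusted p = 3.71e-05), ITGA1 at -1.11 (adjusted p = 3.53e-05), ITGAV at -0.98 (adjusted p = 3.22e-05) and ITGA11 at -1.08 (adjusted p = 9.32e-05). In that fit ITGB3 was at -0.95 (adjusted p = 1.65e-04), ITGB1 at -0.82 (adjusted p = 4.80e-04) and ITGB5, the only one higher, at 0.57 (adjusted p = 6.42e-04). The other 5 fits that left out 1 library called 0.

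**Figure D3:**
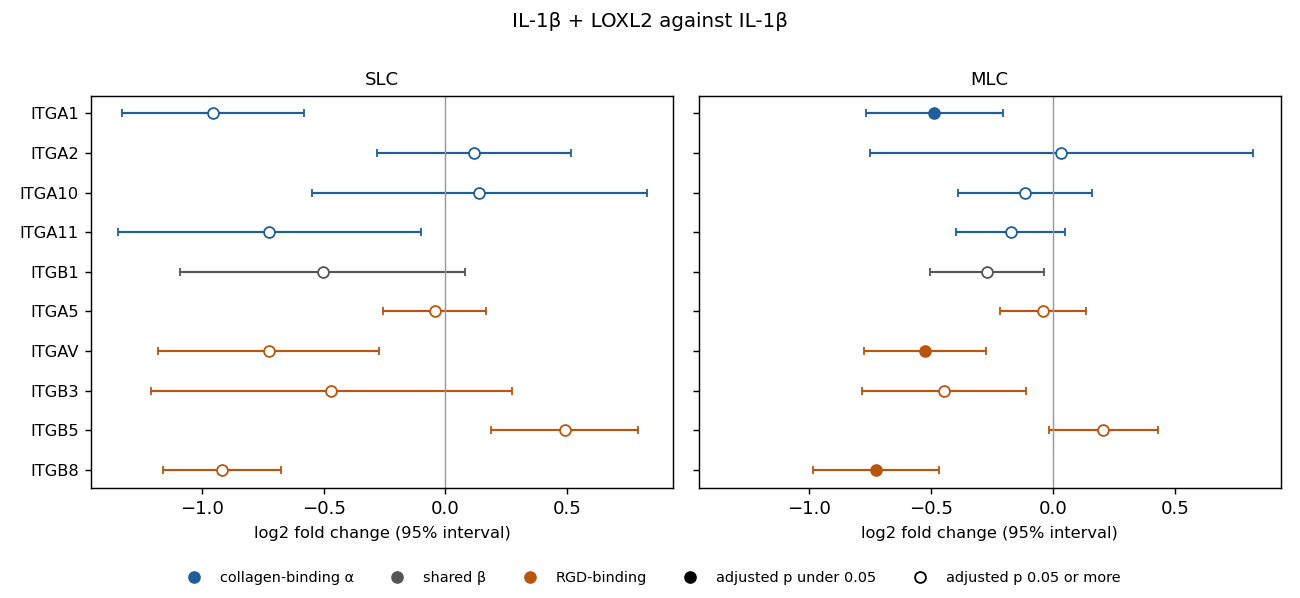
Log2 fold change of IL-1β + LOXL2 against IL-1β for each integrin subunit gene with its 95% interval in SLC (left) and MLC (right); filled points have an adjusted p under 0.05 in edgeR. ITGB8, ITGAV and ITGA1 lie to the left of 0 in both layers, and the 3 filled points are all in MLC.

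Whether the LOXL2 effect differed between layers was tested as an interaction on all 12 libraries. Of 14519 genes, 0% passed with edgeR, and none with DESeq2. At an unadjusted p under 0.05 there were 2.25% of genes and 0 of the 10 members. The members' median difference (MLC effect minus SLC effect) was 0.098, beside -0.022 for all genes, and 0.31 without the first SLC replicate labelled IL-1β + LOXL2. The members' median was 0.00043 and 0.040 with the second and the third of these left out, 0.016 and 0.23 with the first and the third MLC library labelled IL-1β + LOXL2 left out, and, of the libraries labelled IL-1β, 0.061 and 0.15 with the second and the third SLC library and 0.064 with the second MLC library left out. It was 0.032 with the trend on gene span removed. The difference was widest for ITGA11, at 0.54 (95% interval -0.094 to 1.18), and ITGA1, at 0.46 (-0.022 to 0.93). ITGB5 had -0.30 (-0.66 to 0.068), and the other 7 members lay between -0.26 (ITGA10) and 0.22 (ITGB1), each with an adjusted p of at least 0.958. Without the first SLC replicate, ITGA11 was at 0.89 (adjusted p = 0.0944) and ITGA1 at 0.60 (adjusted p = 0.105). The calls in MLC and their lack in SLC are therefore not shown to be a difference between layers.

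Fold changes between IL-1β + LOXL2 and IL-1β also moved with the genomic span of genes, introns included. In SLC the median log2 fold change was 0.27 over 6893 genes spanning under 20 kb, -0.093 over 3861 genes of 20 to 60 kb, -0.31 over 1746 genes of 60 to 120 kb and -0.44 over 1573 longer genes. In MLC the medians of the same classes were 0.18, -0.060, -0.23 and -0.30. ITGA10 spans 17.5 kb, ITGA5 21.1 kb, ITGB1 43.3 kb and ITGB3 61.3 kb. The rest are longer, with ITGB8 at 95.1 kb, ITGAV at 106 kb, ITGA2 at 109 kb, ITGB5 at 112 kb, ITGA11 at 136 kb and ITGA1 at 172 kb. ITGB8, ITGAV, ITGA1, ITGB3, ITGB1 and ITGA10 were below the median of their class in both layers, ITGB5, ITGA2 and ITGA5 were above it, and ITGA11 was below it in SLC and above it in MLC. With the trend removed, ITGB8 in MLC was at -0.48 (adjusted p = 0.0205), ITGAV at -0.27 (adjusted p = 0.0382) and ITGA1 at -0.21 (adjusted p = 0.116). ITGB5 then passed in the other direction, at 0.49 (adjusted p = 0.0275), beside 14.7% of all genes called. In SLC the corresponding values, none past the threshold, were -0.54 for ITGB8, -0.37 for ITGAV, -0.55 for ITGA1 and 0.90 for ITGB5. What gives rise to the trend was not tested.

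The tables hold 15 of 16 further integrin subunit genes that were listed, of which 11 were tested in each comparison. Between treatments in MLC, 4 were lower with IL-1β + LOXL2 and 0 higher, beside 11.8% and 9.81% of all genes, and the list's median was -0.10. These were ITGA9, which binds tenascin, at -1.13 (adjusted p = 0.0247), ITGA6, a laminin receptor chain, at -0.68 (adjusted p = 0.0223), ITGA4, a fibronectin and VCAM1 receptor chain, at -0.66 (adjusted p = 0.0241), and ITGA8, another RGD-binding chain, at -0.32 (adjusted p = 0.0476). These genes span 85.8 to 367 kb, and with the trend on span removed ITGA6 alone passed, while ITGA8 was at -0.031 (adjusted p = 0.809). ITGA9 rested on few counts, 47, 40 and 60 with IL-1β and 41, 16 and 22 with IL-1β + LOXL2. The calls of all 4 were lost with all 12 libraries fitted together, and when the first or the third library with IL-1β or the second or the third with IL-1β + LOXL2 was left out. Without the second IL-1β replicate 2 were left (ITGA9 and ITGA6, with an adjusted p of up to 0.197 over these fits for ITGA8). In SLC edgeR called 0 of 11, with a median of -0.28, against 4 at an unadjusted p under 0.05 (43.3% of all genes), 1 higher and 2 lower with DESeq2 (30.4%), and 1 higher and 6 lower with the first IL-1β + LOXL2 library left out (61.7%). With all SLC libraries ITGA4 was at 31.7, 37.9 and 30.2 CPM and 20.7, 9.07 and 11.4 CPM, with a log2 fold change of -1.29 (adjusted p = 0.0706). Between layers with IL-1β, 5 were higher and 2 lower in MLC (24.2% and 22.7% of all genes), with a median of -0.038. These counts were 3 and 1 when the third SLC library, the first MLC library or the third MLC library was left out (38.8% to 43.7% of all genes called). ITGB4, the β chain of hemidesmosomes, was lower at -2.67 (adjusted p = 1.11e-06), as was ITGAX, a myeloid chain, at -0.67 (adjusted p = 0.0342), though ITGAX did not pass without the second or the third SLC replicate or the first or the third MLC replicate (adjusted p up to 0.133). ITGB4 held 93, 98 and 78 counts in SLC but only 12, 7 and 11 in MLC, and it passed the filter on low counts there through SLC. ITGA4 was higher at 1.39 (adjusted p = 7.60e-08) and ITGA6 at 0.80 (adjusted p = 5.85e-05). With IL-1β + LOXL2, 1 was higher (ITGA4, 2.01, adjusted p = 0.00704) and 1 lower (ITGB4, -2.23, adjusted p = 0.00181), with a median of 0.059 (9.29% and 6.83% of all genes). Without the first SLC replicate there were 3 and 2 (32.9% of all genes called), and ITGA6 also passed (adjusted p = 5.74e-04). ITGA3, a laminin receptor chain, had log2 fold changes between -0.20 and 0.059 in the 4 comparisons, none past the threshold, though it passed between treatments in SLC with the first IL-1β + LOXL2 library left out (adjusted p = 0.00861).

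Of 13 listed collagen genes, 13 were tested between layers, where 7 were higher and 3 lower in MLC with IL-1β (46.9% of all genes called) and 5 and 2 with IL-1β + LOXL2 (16.1%). Those higher include COL2A1 and COL9A1, which passed the filter on low counts through MLC alone and could only be called higher. The medians were 0.25 and 0.48, unchanged with COL2A1 and COL9A1 at their lower bounds, and without the first SLC replicate labelled IL-1β + LOXL2 the latter count was 9 higher and 2 lower (32.9%). COL4A1 and COL4A2, chains of basement membrane collagen, were lower in MLC, at -1.83 (adjusted p = 1.07e-10) and -1.28 (adjusted p = 8.37e-10) with IL-1β and at -1.74 (adjusted p = 4.21e-04) and -1.03 (adjusted p = 0.00130) with IL-1β + LOXL2. COL1A1, a chain of the main fibrillar collagen of fibrocartilage, had -0.19 (adjusted p = 0.0567) and -0.046 (adjusted p = 0.856). Between treatments in MLC, COL6A3 and COL5A1, chains of pericellular and fibril-regulating collagens, were lower, at -0.48 (adjusted p = 0.0267) and -0.37 (adjusted p = 0.0323). None was higher, and of all genes 11.8% were lower and 9.81% higher. With the trend on gene span removed 3 were higher and 0 lower (14.7% of all genes called), and neither COL6A3 nor COL5A1 passed. COL2A1 had -0.032 (95% interval -0.51 to 0.45) and COL1A1 0.12 (-0.059 to 0.30), and the list's median was -0.032. The count was 3 higher and 4 lower when the first IL-1β + LOXL2 library was left out (48.1% of all genes called). Without any 1 of the other libraries it was 0, except without the second IL-1β replicate, where COL6A3 alone passed (adjusted p over the 6 fits up to 0.121 for COL6A3 and 0.141 for COL5A1). In SLC edgeR called 0 of 11, with a median of -0.24, against 3 at an unadjusted p under 0.05 (43.3% of all genes), 3 lower with DESeq2 (30.4%) and 6 lower without the first IL-1β + LOXL2 replicate (61.7%).

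Of 15 listed RGD ligands, 13 were tested in each of the 4 comparisons. VTN, which encodes vitronectin, had 0 counts in all 12 libraries. As to the layers, 8 were higher and 3 lower in MLC with IL-1β (median 0.28; 24.2% and 22.7% of all genes), and with IL-1β + LOXL2 7 and 1 (median 0.57; 9.29% and 6.83%). SPP1, which encodes osteopontin, was higher, at 2.86 (adjusted p = 1.07e-12) and 2.73 (adjusted p = 2.96e-04), as were TNC, at 1.15 (adjusted p = 5.07e-08) and 1.43 (adjusted p = 0.0195), and THBS2, at 1.02 (adjusted p = 7.78e-09) and 1.45 (adjusted p = 0.00239). FN1, the fibronectin gene, was higher too, at 0.83 (adjusted p = 8.03e-07) and 1.13 (adjusted p = 0.0330). With IL-1β + LOXL2, TNC did not pass without the third SLC replicate or the first or the second MLC replicate (adjusted p up to 0.0825). FN1 did not pass there without the third SLC replicate or any 1 of the MLC replicates (up to 0.124). In each of these fits the list had 3 higher and 1 lower, beside 8.07% to 9.79% of all genes called. FBN1, which encodes the microfibril protein fibrillin, was lower with IL-1β, at -1.18 (adjusted p = 2.92e-08). Between treatments in MLC, 4 were lower and 1 higher (median -0.043; 11.8% and 9.81% of all genes), and 3 and 1 with the trend on gene span removed, where TNC did not pass. Those lower in MLC were FBN1 at -0.70 (adjusted p = 0.0199), FN1 at -0.54 (adjusted p = 0.0229), TNC at -0.45 (adjusted p = 0.0286) and THBS1, a thrombospondin, at -0.44 (adjusted p = 0.0371), and MFGE8, a bridging protein named after its values were seen, was higher at 0.32 (adjusted p = 0.0481). When the first or the third library with IL-1β or the second with IL-1β + LOXL2 was left out, 0 of the 13 passed, and FBN1 alone of those lower passed with the second IL-1β or the third IL-1β + LOXL2 library left out (adjusted p over the 6 fits up to 0.159 for THBS1). In SLC edgeR called 0 of 13 (median -0.29), against 5 at an unadjusted p under 0.05 (43.3% of all genes), 4 lower with DESeq2 (30.4%), and 2 higher and 7 lower with the first IL-1β + LOXL2 library left out (61.7%). FN1 in SLC was at 10032, 10786 and 9146 CPM and 7739.8, 3989 and 5118 CPM, a log2 fold change of -0.84 (adjusted p = 0.0706), and SPP1 had 0.17 in SLC and 0.048 in MLC, neither past the threshold.

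All 32 listed focal adhesion adaptors and kinases, which couple integrin tails to actin and signalling, were tested. With IL-1β alone, 5 were higher and 13 lower in MLC than in SLC (median -0.085), beside 46.9% of all genes called, and with IL-1β + LOXL2 2 and 4 (median -0.0040), beside 16.1%. PARVB, an actin-binding partner of ILK, was lower, at -2.93 (adjusted p = 1.77e-10) and -2.96 (adjusted p = 2.96e-04). Also lower were LIMS2, another partner of ILK, at -1.52 (adjusted p = 2.81e-09) and -1.25 (adjusted p = 0.00871), PTK2B, a kinase related to PTK2, at -1.33 (adjusted p = 2.40e-06) and -1.16 (adjusted p = 0.00409), and the actin-binding TNS1, at -1.08 (adjusted p = 9.89e-08) and -0.92 (adjusted p = 0.0148). TNS1 did not pass with IL-1β + LOXL2 without the second or the third MLC replicate (adjusted p up to 0.0724). Without the first SLC replicate the list had 6 higher and 5 lower, beside 32.9% of all genes called. With the third SLC library, the first MLC library or the second MLC library left out, 0 were higher. Between treatments in MLC, 3 were higher and 4 lower (median -0.10). That is close to the 21.6% of all genes called there, and with the trend on gene span removed it was 3 and 1, and TNS3 did not pass. LPP and TNS3, which link adhesions to actin, were among those lower, at -0.81 (adjusted p = 0.0190) and -0.50 (adjusted p = 0.0197), and LIMS2 was higher, at 0.72 (adjusted p = 0.0207). None of the 32 passed in MLC when the first or the third library with IL-1β or the second with IL-1β + LOXL2 was left out. Without the first IL-1β + LOXL2 replicate 7 were higher and 13 lower, beside 48.1% of all genes called. LPP and TNS3 passed with the second IL-1β or the third IL-1β + LOXL2 library left out, and LIMS2 in the former only (adjusted p over the 6 fits up to 0.108 for LIMS2). In SLC edgeR called 0 of 32 (median -0.23), against 19 at an unadjusted p under 0.05 (43.3% of all genes), 4 higher and 10 lower with DESeq2 (30.4%), and 7 higher and 17 lower without the first library labelled IL-1β + LOXL2 (61.7%). PTK2 (focal adhesion kinase) had -0.17 in SLC and -0.12 in MLC, TLN1 (talin, which activates integrins) -0.47 and -0.18, FERMT2 (kindlin, its co-activator) -0.50 and -0.26, and ILK (a scaffold at the β tail) 0.33 and 0.28, none past the threshold. TLN1, FERMT2 and ILK passed in either layer with its first IL-1β + LOXL2 library left out (adjusted p = 4.52e-04, 2.75e-04 and 0.00258 in SLC and 0.0246, 3.57e-04 and 4.41e-04 in MLC). PTK2 and TLN1 were lower in MLC than in SLC with IL-1β, at -0.26 (adjusted p = 0.00448) and -0.20 (adjusted p = 0.0218), whereas FERMT2, at -0.10 (adjusted p = 0.185), and ILK, at 0.13 (adjusted p = 0.101), did not pass. TLN1 did not pass without the second SLC or the third MLC replicate (adjusted p up to 0.0998), and ILK passed without the third SLC replicate (adjusted p = 0.0378). None of these 4 passed between layers with IL-1β + LOXL2.

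Of 9 integrin partners at the membrane and in trafficking, 1 was higher and 1 lower between treatments in MLC (median 0.057; 21.6% of all genes called), and 2 and 0 with the trend on gene span removed, where CD47 did not pass. CD151, a tetraspanin bound to laminin receptors, was at 0.52 (adjusted p = 0.0229), and CD47, a partner of ITGB3 dimers, at -0.36 (adjusted p = 0.0304). CD47 passed in only 1 of 6 fits that left out 1 library (without the first IL-1β + LOXL2 replicate), and CD151 passed there and without the second IL-1β replicate (adjusted p up to 0.147 and 0.111), and without the former 4 were higher and 1 lower. Between layers with IL-1β, 2 were higher and 0 lower in MLC (median 0.031), beside 24.2% and 22.7% of all genes, the syndecan SDC4 at 0.36 (adjusted p = 8.39e-04) and CD47 at 0.22 (adjusted p = 0.0116), which did not pass without the first MLC replicate (adjusted p = 0.0701). With IL-1β + LOXL2 edgeR called 0 between layers (median -0.017), as did DESeq2, with 0 at an unadjusted p under 0.05, and 2 higher and 1 lower without the first SLC replicate (32.9% of all genes). Between treatments in SLC edgeR called 0 (median 0.18), against 4 at an unadjusted p under 0.05 (43.3% of all genes), 1 in each direction with DESeq2 (30.4%), and 6 higher and 2 lower without the first IL-1β + LOXL2 replicate (61.7%).

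CXADR encodes the receptor to which many adenoviruses attach, while ITGAV dimers serve in its uptake. In SLC it was at 4.70, 4.52 and 5.03 CPM with IL-1β and 5.79, 12.1 and 9.07 CPM with IL-1β + LOXL2, giving a log2 fold change of 0.91 (SE 0.26, adjusted p = 0.0706). The groups did not overlap. In MLC it was at 6.12, 6.28 and 5.19 and 6.34, 7.36 and 8.73 CPM, a log2 fold change of 0.35 (SE 0.17, adjusted p = 0.154). CXADR passed in either layer with its first IL-1β + LOXL2 library left out (adjusted p = 1.75e-04 in SLC and 0.0348 in MLC), in SLC it also passed with DESeq2 and in the fit on all 12 libraries, and the layers did not differ past the threshold, with 0.31 (adjusted p = 0.106) under IL-1β and -0.25 (adjusted p = 0.596) under IL-1β + LOXL2.

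Between treatments in MLC, the chondrocyte marker COMP was higher, at 0.37 (adjusted p = 0.0283), the only call of its list, beside 9.81% of all genes higher and 11.8% lower. In the list 2 of 10 had a positive and 8 a negative log2 fold change (median -0.17). The list had 0 calls in the fit on all 12 libraries and in 5 of 6 fits that left out 1 library. It had 2 higher and 3 lower without the first library with IL-1β + LOXL2, beside 48.1% of all genes called. Some listed markers of smooth muscle or pericytes moved too. Of 6 listed, 4 were tested there and 3 were higher with IL-1β + LOXL2 (9.81% of all genes), namely ACTA2, CNN1 and TAGLN. MYH11 was not called, at 25.7, 31.4 and 24.9 CPM with IL-1β and 24.9, 26.5 and 28.9 CPM with IL-1β + LOXL2. DES, at 3 to 10 counts in MLC, and RGS5, at 0 to 3, were not tested. The listed genes together summed to 2356, 2166 and 2333 CPM with IL-1β and 2767, 3445 and 3686 CPM with IL-1β + LOXL2. TAGLN was the most abundant in each MLC library. These calls too were lost when the first or the third library with IL-1β or the second with IL-1β + LOXL2 was left out, where 0% of genes passed, and in the fit on all 12 libraries. In SLC the sums were 2843, 3545 and 3543 and 3739, 4044 and 4326 CPM. There 0 of 5 passed the threshold of edgeR and 0 that of DESeq2 (30.4% of all genes). At an unadjusted p under 0.05 there were 2 (43.3%), and 1 was higher with the first IL-1β + LOXL2 library left out (61.7%). With IL-1β, 3 of 4 were lower in MLC than in SLC (22.7% of all genes), and 4 with DESeq2, and with IL-1β + LOXL2 1 of 4 was lower (6.83%), and 0 when either the first MLC library or the third was left out. Of 8 fibroblast or superficial layer markers, 4 were higher and 2 lower in MLC with IL-1β (46.9% of all genes called), 3 and 1 with IL-1β + LOXL2 (16.1%; 0 lower with the third SLC library or any 1 MLC library left out), and 1 was higher and 1 lower between treatments in MLC (21.6%), calls of the latter kept only when the first IL-1β + LOXL2 library was the 1 left out. Skeletal muscle, endothelial and osteoblast markers had sums of at most 21.7, 4.29 and 4.45 CPM. The first was mostly TNNT3, with 25 to 576 counts, which was lower in MLC than in SLC, at -1.74 (adjusted p = 2.80e-06) with IL-1β and -2.20 (adjusted p = 0.00352) with IL-1β + LOXL2. The endothelial VWF was higher in MLC, at 1.27 (adjusted p = 2.87e-04) and 1.0615 (adjusted p = 0.0361), the latter call lost without the third SLC replicate or any 1 of the MLC replicates, where 0 endothelial markers passed. VWF was the only 1 of 6 listed endothelial markers tested. With IL-1β, PECAM1 had 8, 9 and 6 counts in SLC and 2, 1 and 3 in MLC. CDH5, KDR, TIE1 and EMCN had 0 to 3 counts in every library. Leukocyte markers had sums of 49.0 to 134 CPM, most of it CD14, which was higher in MLC with IL-1β, at 0.49 (adjusted p = 0.00398), a call lost when all 12 libraries were fitted together. CD14 was the only 1 called of 2 leukocyte markers tested there. Of 2 osteoblast markers tested between layers with IL-1β, ALPL was lower in MLC, at -1.02 (adjusted p = 0.0448), a call kept in 1 of 6 fits that left out 1 library (the second SLC library) and not made by DESeq2, and BGLAP was at 0.74 (adjusted p = 0.0883). ALPL held 22, 15 and 23 counts in SLC and 8, 5 and 8 in MLC. It passed the filter on low counts through SLC alone, so it could only be called lower. The summed level of the osteoblast list was higher in each MLC library with IL-1β, at 3.80, 4.45 and 2.86 CPM against 2.12, 2.35 and 2.76 CPM. The part of these markers in the integrin results was not tested, nor was that of the chondrocyte markers in the difference between layers.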

How the data were processed

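Paired-end reads were trimmed, mapped to the goat assembly ARS1.2 (the submitters' notes name HISAT2) and counted with featureCounts by the authors, who deposited raw counts in 1 table for each layer. Sources used here give neither the aligner's version nor how strand and multi-mapping reads were handled. The labels name an RNeasy kit for extraction and the paper TRIzol. Names on more than 1 line (1783) were not joined across tables. After filterByExpr (count 10, total 15) and TMM scaling, the edgeR quasi-likelihood test (edgeR 4.0.16, R 4.3.3) was run with Benjamini-Hochberg adjustment (threshold 0.05). DESeq2 1.42.0 was an alternative. The procedure was tested on simulated counts. Standard errors were obtained from the fold change and the F statistic. Each comparison used its 6 libraries, and the interaction 12.

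The members and lists were chosen with earlier results of these data known. Named are all members, LOXL2, 14 fixed genes (ITGA3, ITGA4, ITGA6, ITGB2, FN1, VTN, SPP1, COL1A1, COL2A1, PTK2, TLN1, FERMT2, ILK and CXADR), and up to 4 genes of each list with the largest change past the threshold in MLC or between layers. Deviations from the group means of libraries with the same replicate number correlated at 0.61, 0.21 and 0.17 between layers with IL-1β + LOXL2. The fit with the number as a block is therefore given beside that comparison for the members, where 27.6% of all genes were called against 16.1% without it. The counts of the other lists are given without the block. In the other comparisons the deviations did not correlate in every pair, and the same block was run as an alternative only. Further alternatives were DESeq2's size factors, no filter, at least 10 counts in every library, all 12 libraries in 1 fit, leaving out each library, and removal of each library's trend of log2 CPM on genomic span by lowess (smoother span 0.3). Coordinates are from RefSeq for ARS1.2, the build the authors used.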

Additional observations from a re-analysis of the deposited data

How the results depend on the processing

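Between layers with IL-1β, the members' count stayed between 7 and 8 under each alternative, while 25.6% to 47.2% of all genes were called. With IL-1β + LOXL2 it lay between 5 and 8, while 8.07% to 32.9% of all genes were called. In the SLC comparison of treatments the count was 5 with DESeq2's Wald test (30.4% of all genes called) and 5 in the fit on all 12 libraries (41.1%). It ranged from 0 to 7 when 1 library was left out (0% to 61.7%). In MLC it was 5 with the replicate block (29.7% of all genes called, against 21.6% without the block), where ITGB1 and ITGB3 also passed, lower. It was 0 in the fit on all 12 libraries (0% of all genes), and it ranged from 0 to 6 when 1 library was left out (0% to 48.1%). The cause was not tested. ITGAV's call between layers with IL-1β was lost with the replicate block, at 0.18 (adjusted p = 0.0779). Over all alternatives but those that leave out a library, with the ones above counted too, members past the threshold kept direction and side in 113 cases and lost the call in 6, and members not past it kept their side in 198, passed in 14 and turned direction in 8; for the other named genes these numbers were 332, 34, 218, 20 and 7.

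With the gene-span trend removed, the log2 fold change between treatments turned to -0.037 for SPP1, 0.26 for PTK2 and 0.14 for LOXL2 in SLC, and to 0.11 for ITGA11, -0.11 for SPP1, 0.027 for COL2A1, 0.17 for PTK2 and 0.21 for LOXL2 in MLC. ITGA5 turned to -0.025 between layers with IL-1β, -0.018 with IL-1β + LOXL2 and 0.0012 in the interaction, and ITGB3 to -0.023 in the interaction. With the replicate block, ITGA2 in MLC was at -0.039. The interaction of ITGA5 was 0.0095 with DESeq2's size factors and 0.011 with its Wald test. None of these passed the threshold before or after, and the cause was not tested.

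With 1 library left out, direction turned in some fits for these log2 fold changes. Between treatments in SLC they were -0.25 to 0.36 for ITGA10, -0.064 to 0.31 for SPP1 and -0.059 to 0.031 for COL1A1, and in MLC -0.50 to 0.32 for ITGA2 and -0.28 to 0.16 for COL2A1. Between layers with IL-1β they were -0.061 to 0.035 for ITGB1, -0.0069 to 0.052 for ITGA5 and -0.096 to 0.044 for ITGA3. With IL-1β + LOXL2 they were -0.22 to 0.11 for ITGA1, -0.0055 to 0.54 for ITGB1, -0.030 to 0.18 for ITGA3, -0.018 to 0.25 for TLN1, -0.012 to 0.32 for FERMT2 and -0.48 to 0.017 for CXADR. In the interaction they were -0.63 to 0.18 for ITGA2, -0.48 to 0.12 for ITGA10, -0.045 to 0.020 for ITGA5 and -0.24 to 0.48 for ITGB3. Levels between genes with coding length were not run, since no exon or coding lengths were at hand. ITGA2 rested on few counts, 20 to 56 in MLC libraries, and what limits its precision was not tested.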
